A study of Mus musculus with 6 samples.

Results

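The RNA of mouse embryonic fibroblasts labelled heterozygous for knockouts of Sptbn1 and of Smad3 was compared with that of fibroblasts labelled heterozygous for the Sptbn1 knockout alone, so that the 2 labels differ by 1 Smad3 allele. Genes entered the comparison when a level of at least 1 CPM (counts-per-million of the scaled library) was present in either library, which kept 14217 of the 25793 genes in the count tables. Of these, 13138 reached that level in the double heterozygote and 13638 in the Sptbn1 heterozygote. For each gene the ratio of scaled counts, double heterozygote over Sptbn1 heterozygote, is given with an exact 95% interval. Calls of higher or lower are made only where both ends of that interval are past 1.5-fold, the rule behind 5760 calls, or 40.5% of the genes.

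Sptbn1 encodes beta-II spectrin, a rod-like protein of the skeleton under the cell membrane that also serves as an adaptor for SMAD proteins. Smad3 encodes a transcription factor that TGF-beta and activin receptors phosphorylate, after which it enters the nucleus with Smad4 and switches on matrix, contractile and cell-cycle arrest genes in fibroblasts. Primary fibroblasts from embryos divide for a limited time in culture, and they answer injury signals through the transcription factor NF-kB with chemokines and acute-phase proteins.

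All cells were primary fibroblasts grown from embryos at E13.5, from matings of Sptbn1 heterozygous and Smad3 heterozygous mice, and kept in DMEM/F12 medium with 10% fetal bovine serum. The series holds 6 libraries, 1 each of wild type (WT), Sptbn1 heterozygous, Sptbn1 homozygous, Smad3 heterozygous, Smad3 homozygous and doubly heterozygous cells, and no treatment is named. Since each genotype is 1 library, nothing can be checked against replicates, every statement below describes libraries and not genotypes, and no p-value is given. The intervals cover counting error only, because 1 library per genotype shows no spread between cultures. They may be too narrow even for that, because sequenced reads without molecular tags are not independent molecules.

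The targeted genes were read first. Sptbn1, listed under its older symbol Spnb2, was at 1419 CPM in WT, 1071 in the library labelled Sptbn1 heterozygote, 771 in that labelled Sptbn1 homozygote, 1556 in the Smad3 heterozygote, 1022 in the Smad3 homozygote, against 695 in the library labelled double heterozygote. It was thus 1.54-fold (1.5 to 1.58) lower in the double heterozygote than in the Sptbn1 heterozygote, although both labels name the same Sptbn1 genotype. This call is at the threshold, and it was lost with scaling by total counts (log2 ratio -0.59) and without histone and structural RNA genes (-0.60). Smad3 was at 57.7 CPM in the Sptbn1 heterozygote and 203 CPM in the double heterozygote, 3.52-fold (3.18 to 3.91) higher in the library whose label names a lost allele. WT stood at 53.3 CPM, the Smad3 heterozygote at 79.5 and the Smad3 homozygote at 106. The Smad3 counts therefore ran against the labels, and genotype names below are only those of the labels. Which part of either gene was removed is not stated in the sources used here, and counts summed over all exons can miss a deleted one.

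The 2 libraries also differed in make-up. The Sptbn1 heterozygote held 6888076 counts on genes and the double heterozygote 31125055. Of the uniquely placed reads, 41.7% fell on genes in the Sptbn1 heterozygote and 81.2% in the double heterozygote, and the share of records outside genes was 30.9% and 11.9%. The Smad3 homozygote, at 80.1% on genes, was the only other library above 43.3%. It was unlike the double heterozygote in ambiguous records, those that overlap several genes, at 0.0251% against 0.827% of records. The other libraries held 0.363% to 0.413%. Log2 levels of 14810 genes, which do not count as replicates, correlated at 0.876 between the 2 libraries of the pair. The value was 0.986 between the Sptbn1 heterozygote and WT. Whatever caused the difference in make-up, it and the labelled Smad3 allele cannot be told apart in this pair. Xist was at 2.65 and 0.0637 CPM in the pair, against 2747 CPM in the library labelled Smad3 heterozygote, the only one of female type. The 16 fibroblast markers were present in both libraries, among them Vim at 2405 and 2381 CPM and Prrx1 at 1092 and 914 CPM in the Sptbn1 heterozygote and the double heterozygote, while 13 of 17 epithelial markers stayed under 1 CPM in both.

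In all, 3128 genes were higher in the double heterozygote (22% of those compared) and 2632 were lower (18.5%). Beyond 4-fold, 411 were higher (2.89%) and 639 lower (4.49%), together 7.39%. The median log2 ratio was 0.08, with quartiles at -0.62 and 0.83. Counts of list members below are to be read against these shares. The sides were unlike in kind: predicted gene models were lower for 31.7% of 2050 and higher for 12.8%. Long transcripts were lower more often. In the longest tertile of 13483 genes matched to a transcript length, 24.5% were lower and 16.6% higher, against 13.4% and 26.9% in the shortest tertile. The part of transcript length in the single results was not tested.

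**Figure D1:**
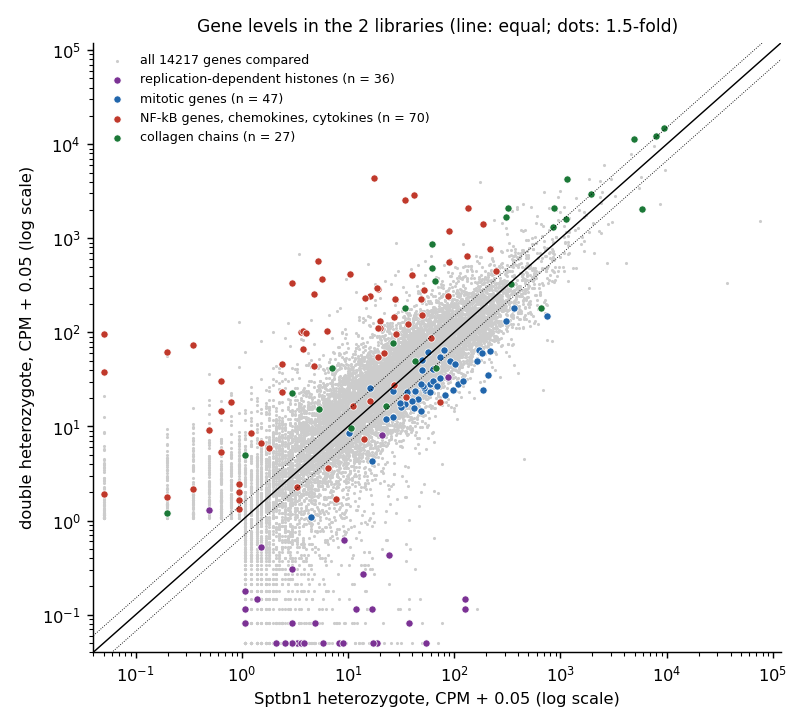
Level of each of the 14217 genes in the Sptbn1 heterozygote (horizontal axis) and the double heterozygote (vertical axis), in CPM plus 0.05 on log scales. The solid line marks equal levels and the dotted lines 1.5-fold; most NF-kB genes, chemokines and cytokines lie above the line, most mitotic genes below it, and most histone genes at the bottom edge.

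Chemokines and acute-phase genes were among the 15 genes with the largest ratios in the library labelled double heterozygote, next to others such as the amino acid transporter Slc36a2, at least 80.8-fold higher, and the cartilage gene Comp. Cxcl5, a chemokine that draws neutrophils, was at 17.5 CPM in the Sptbn1 heterozygote and 4351 CPM in the double heterozygote, 248-fold (207 to 300) higher. Steap4, a metalloreductase, was at 3.39 and 676 CPM, 199-fold (133 to 315) higher. Nos2, the inducible nitric oxide synthase, had 0 counts in the Sptbn1 heterozygote and stood at 95.2 CPM in the double heterozygote, at least 215-fold higher when 3 counts are taken as the floor in the former. Lcn2, an iron-sequestering acute-phase protein, was 115-fold (74.3 to 188) higher, at 2.94 and 338 CPM. The complement component C3 was at 34.2 and 2530 CPM, and the serum amyloid Saa3 at 42.0 and 2893 CPM, 74.1-fold (65.1 to 84.6) and 68.9-fold (61.4 to 77.7) higher. Among the other 5 libraries Cxcl5 reached at most 85.8 CPM (Smad3 heterozygote), C3 at most 90.9 CPM (Sptbn1 homozygote) and Saa3 at most 155 CPM (Smad3 heterozygote), so that the double heterozygote did not overlap with them.

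NF-kB is held in the cytoplasm by inhibitor proteins and, once freed, induces those same inhibitors as feedback. Of 17 subunits and feedback genes, 15 were higher in the double heterozygote and 1 lower, with a median log2 ratio of 3.26 against 0.08 over all genes. The inhibitor Nfkbia was at 8.67 CPM in WT, 5.6 in the Sptbn1 heterozygote, 8.07 in the Sptbn1 homozygote, 7.66 in the Smad3 heterozygote, 35.8 in the Smad3 homozygote, against 366 in the double heterozygote. It was 65.5-fold (47.7 to 92.6) higher in the comparison, the double heterozygote lying far outside the range of the other 5 libraries. A second inhibitor, Nfkbie, went from 3.68 to 103 CPM (28.0-fold, 18.9 to 43.4), and Tnfaip3, an enzyme that shuts the pathway off, from 14.3 to 233 CPM (16.3-fold, 13.4 to 20.1). The subunit gene Relb was at 3.98 and 97.3 CPM (24.5-fold, 16.8 to 37.2). Among subunits named after their values were seen, Nfkb2 was at 16 and 243 CPM, Nfkb1 at 52.3 and 279 CPM and Rela at 49.9 and 154 CPM, all 3 called higher. Rel, the subunit of lymphoid cells, was the member that was lower, at 14 and 7.26 CPM, a call lost with total counts (log2 ratio -0.92) and without histone and structural RNA genes (-0.93). All 15 higher members also lay at least 1.5-fold, with the whole interval, above the highest of the other 5 libraries, where 7.55% of all genes did so.

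Promoters of 6 genes are shown: Nfkbia, Tnfaip3 and Nfkb2 of this list, and the chemokine genes Cxcl1, Cxcl2 and Ccl20. They are printed because they carry the letters of an NF-kB site in the bases just before the start of the gene. The motif searched was GGGNNNTTCC on either strand, and 4.6% of the 27025 RefSeq promoters of GRCm38.p6 held it in the 250 bases before the start, as did 4.95% of the 10616 promoters of genes compared here. The letters in capitals mark every match, overlapping matches running together; each line gives 200 bases ending at the start, 5′ to 3′ on the gene's strand. A match is a description of letters and not a site. Of the 17 list members compared, 13 had a promoter in the table and 6 of those held the motif, but with 76.5% matched no share is drawn. These 6 list members are not the same 6 genes as those printed. The positions are chr12:55492648-55492847 (minus strand) for Nfkbia, chr10:19015411-19015610 (minus) for Tnfaip3, chr19:46304537-46304736 (plus) for Nfkb2, chr5:90891045-90891244 (plus) for Cxcl1, chr5:90903699-90903898 (plus) for Cxcl2 and chr1:83116566-83116765 (plus) for Ccl20.
Nfkbia: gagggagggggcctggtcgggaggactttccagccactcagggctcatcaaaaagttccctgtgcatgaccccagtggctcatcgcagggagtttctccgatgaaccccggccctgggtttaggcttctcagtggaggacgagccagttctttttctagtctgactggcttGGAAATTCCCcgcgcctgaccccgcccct
Tnfaip3: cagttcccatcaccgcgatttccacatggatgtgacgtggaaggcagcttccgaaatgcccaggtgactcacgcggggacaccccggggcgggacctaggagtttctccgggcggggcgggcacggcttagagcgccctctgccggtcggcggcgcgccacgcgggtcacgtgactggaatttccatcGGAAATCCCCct
Nfkb2: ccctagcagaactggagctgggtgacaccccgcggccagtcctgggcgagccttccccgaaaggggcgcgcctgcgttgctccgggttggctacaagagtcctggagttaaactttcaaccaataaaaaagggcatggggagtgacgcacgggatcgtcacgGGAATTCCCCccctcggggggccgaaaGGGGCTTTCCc
Cxcl1: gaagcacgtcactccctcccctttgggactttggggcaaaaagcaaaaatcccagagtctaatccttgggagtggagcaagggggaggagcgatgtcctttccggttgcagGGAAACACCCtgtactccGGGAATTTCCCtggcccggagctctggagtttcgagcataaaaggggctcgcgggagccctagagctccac
Cxcl2: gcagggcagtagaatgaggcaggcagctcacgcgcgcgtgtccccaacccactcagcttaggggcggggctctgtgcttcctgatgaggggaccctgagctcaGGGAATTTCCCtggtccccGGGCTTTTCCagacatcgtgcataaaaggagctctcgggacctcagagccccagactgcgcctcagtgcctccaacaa
Ccl20: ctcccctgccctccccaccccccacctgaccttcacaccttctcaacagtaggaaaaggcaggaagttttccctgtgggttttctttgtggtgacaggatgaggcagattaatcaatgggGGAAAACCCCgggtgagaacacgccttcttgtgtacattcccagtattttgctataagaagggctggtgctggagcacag
Cxcl1, Cxcl2 and Nfkb2 each show 2 separate runs of capitals, and the neighbouring chemokine genes Cxcl1 and Cxcl2 of chromosome 5 share one of theirs, GGGAATTTCCC.

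Chemokines, the secreted proteins that attract leukocytes, were higher for 18 of 26 and lower for 2, with a median log2 ratio of 2.61. The 2 neutrophil chemokines whose promoters are printed above were at 5.15 and 576 CPM for Cxcl1 (112-fold, 80.4 to 161) and at 0.147 and 61.6 CPM for Cxcl2, which had 1 count in the Sptbn1 heterozygote (418-fold, 75 to 16531). Ccl20, a ligand for lymphocytes and dendritic cells, went from 0.294 CPM, or 2 counts, to 74.3 CPM (252-fold, 69.7 to 2084). Not every chemokine was higher. Cxcl9, which interferon-gamma induces, was 4.06-fold (3.59 to 4.58) lower at 73.6 and 18.2 CPM, and the platelet chemokine Pf4 4.62-fold (3.09 to 6.93) lower at 7.66 and 1.66 CPM. Named after its value was seen, the monocyte chemokine Ccl2 was at 324 CPM in WT, 135 in the Sptbn1 heterozygote, 236 in the Sptbn1 homozygote, 406 in the Smad3 heterozygote, 79.5 in the Smad3 homozygote, against 2089 in the double heterozygote. The stromal chemokine Cxcl12, likewise named afterwards, lay between 80.9 and 108 CPM in 5 libraries and at 1191 CPM in the double heterozygote.

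Cytokines and acute-phase genes were higher for 23 of the 27 compared, of 30 listed, and lower for 0; the median log2 ratio was 3.00, and 2.92 once members with a library at 0 counts were set to their bound. Csf3, the growth factor of granulocytes, had 0 counts in the Sptbn1 heterozygote and 37.8 CPM in the double heterozygote, at least 85.7-fold higher. The haemoglobin-binding protein Hp was at 4.71 and 256 CPM (54.4-fold, 38.5 to 79.6). Interleukin-6, Il6, named after its value was seen, was at 5.75 CPM in WT, 3.68 in the Sptbn1 heterozygote, 6.28 in the Sptbn1 homozygote, 3.78 in the Smad3 heterozygote, 3.02 in the Smad3 homozygote, against 67.2 in the double heterozygote. The 5 other libraries were close together and the double heterozygote stood apart. Of the 23 higher members, 16 stood apart from all other libraries in this way. The others, such as Il1a at 0.589 and 5.29 CPM with 6.10 CPM in WT, were low in the Sptbn1 heterozygote and within the range of the other libraries in the double heterozygote. The counts of Serpina3g and Serpina3h are uncertain because the family has near-identical copies.

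**Figure D2:**
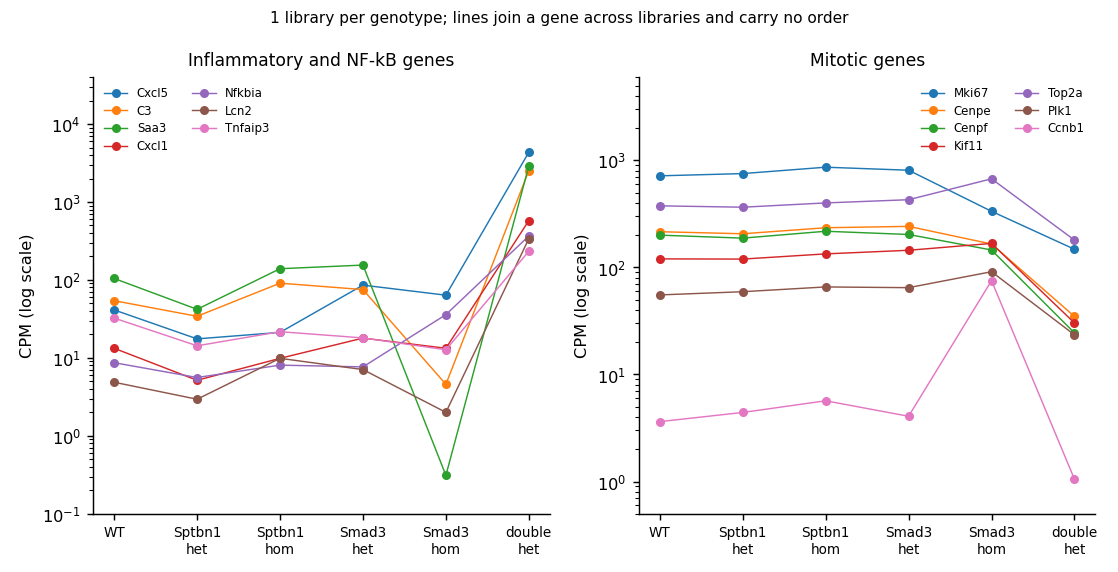
CPM (log scale) of 7 inflammatory and NF-kB genes (left) and 7 mitotic genes (right) in the 6 libraries, 1 point per library, with lines that only join the points of a gene. The inflammatory genes peak in the double heterozygote, and the mitotic genes are lowest there, with Mki67 at 148 CPM against 753 in the Sptbn1 heterozygote.

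Macrophages, which embryonic fibroblast cultures can hold, also make many of these factors, so their markers were read beside them. Of 23 macrophage and leukocyte markers, 5 were higher, 3 lower and 15 neither, with a median log2 ratio of -0.14. The share higher was near the 22% over all genes, and the share lower was under 18.5%. Their summed level was 3050 CPM in WT, 1945 in the Sptbn1 heterozygote, 2102 in the Sptbn1 homozygote, 2881 in the Smad3 heterozygote, 80.0 in the Smad3 homozygote, against 2224 in the double heterozygote. No marker was at 0 in either library of the pair; Ptprc, the pan-leukocyte antigen, was at 26.5 and 26.4 CPM and the macrophage lysozyme Lyz2 at 1073 and 1025 CPM. The 5 higher ones included Cd14, a co-receptor for bacterial lipopolysaccharide, at 48.7 and 230 CPM (4.72-fold, 4.23 to 5.29), and Cd52 at 5.89 and 40.0 CPM (6.79-fold, 4.96 to 9.55). They also included Coro1a at 13.3 and 57.9 CPM (4.37-fold, 3.54 to 5.46) and the macrophage marker Emr1 at 73.5 and 178 CPM (2.43-fold, 2.21 to 2.66). The 3 lower ones were C1qc, at 43.3 and 17.3 CPM (2.50-fold, 2.16 to 2.88), Lyz1, at 1.18 and 0.159 CPM, and Tyrobp (log2 ratio -0.88). In bulk RNA such as this, fewer cells of a type and less RNA per cell cannot be told apart. The summed level of the 17 NF-kB genes was 540 CPM in the Smad3 homozygote, 445 CPM in the Sptbn1 heterozygote and 3226 CPM in the double heterozygote. What part library make-up had in these sums was not tested.

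Genes that interferon induces moved less uniformly. Of 49, 20 were higher in the double heterozygote and 3 lower, with a median log2 ratio of 0.54. Irf1, a transcription factor that both NF-kB and interferon-gamma signalling induce, was at 14.6 and 183 CPM (12.5-fold, 10.3 to 15.5). The immunity-related GTPase Iigp1 was at 21.8 and 121 CPM (5.55-fold, 4.71 to 6.59) and the guanylate-binding protein Gbp3 at 32.7 and 145 CPM (4.43-fold, 3.87 to 5.09). Gbp2 and Gbp5, at 444 and 128 CPM in the double heterozygote, were also higher, but reads of this family are hard to place with certainty. The lower members were the RNA sensors Oas3 (6.77 and 1.72 CPM) and Oas1g (6.48 and 1.43 CPM) and the restriction factor Trim30 (79.5 and 27.0 CPM). Of 17 genes of MHC class I presentation, the display of peptides from inside the cell, 10 were higher and 2 lower. The peptide transporter Tap2 was at 12.5 and 136 CPM (10.9-fold, 8.79 to 13.7), the chaperone Tapbp at 121 and 875 CPM (7.20-fold, 6.72 to 7.73) and the immunoproteasome subunit Psmb10 at 12.4 and 91.8 CPM (7.42-fold, 5.98 to 9.34). The light chain B2m, at 1856 and 1156 CPM, and the heavy chain H2-D1, at 728 and 447 CPM, were lower by 1.61-fold (1.57 to 1.64) and 1.63-fold (1.57 to 1.68). Another heavy chain gene, H2-K1, was higher at 87.5 and 282 CPM, and the non-classical H2-T23 was higher at 2.21 and 41.3 CPM (18.7-fold, 11.3 to 33.5), although reads of this family are hard to place among its near-identical copies.

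Genes of mitosis were lower in the library labelled double heterozygote: 35 of 47 were lower and 0 higher, with a median log2 ratio of -1.08. Most of the 47 were not called once intervals were widened for spread between libraries, an alternative given at the end. The proliferation antigen Mki67 was at 718 CPM in WT, 753 in the Sptbn1 heterozygote, 864 in the Sptbn1 homozygote, 810 in the Smad3 heterozygote, 335 in the Smad3 homozygote, against 148 in the double heterozygote, 5.09-fold (4.89 to 5.30) lower in the comparison. The kinetochore proteins Cenpf, at 188 and 24.5 CPM, and Cenpe, at 206 and 34.9 CPM, were 7.68-fold (7.02 to 8.41) and 5.92-fold (5.47 to 6.41) lower. The spindle motor Kif11 was at 120 and 30.3 CPM (3.95-fold, 3.59 to 4.34). Of all 47 genes, 34 lay below the lowest of the other 5 libraries by the same rule, against 4.48% of all genes compared. The summed level of these genes was 7000 CPM in the Smad3 homozygote, 4563 in the Sptbn1 heterozygote and 1792 in the double heterozygote. What part library make-up had in these sums was not tested. Ccnb1, cyclin B1, was at 4.42 and 1.05 CPM, with 75.3 CPM in the Smad3 homozygote; its near-identical genomic copies make its counts uncertain.

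The start regions of 3 of these genes are printed because CCAAT boxes, the sites of the factor NF-Y, are a known feature of mitotic promoters. Of the 47 mitotic genes, 40 had a promoter in the table and 31 of them (77.5%) held CCAAT on either strand in the 250 bases before the start, against 34.5% of all promoters of the table and 36.5% of the 10616 that belong to genes compared. The share was not particular to mitotic genes. It was 85.7% for endoplasmic reticulum chaperones and stress genes and 77.3% for cholesterol and fatty acid synthesis genes, though 42.9% for collagen chains. Capitals mark each match within the 200 bases before the start: Mki67 at chr7:135716380-135716579 (minus strand), Cenpf at chr1:189688087-189688286 (minus) and Kif11 at chr19:37376182-37376381 (plus).
Mki67: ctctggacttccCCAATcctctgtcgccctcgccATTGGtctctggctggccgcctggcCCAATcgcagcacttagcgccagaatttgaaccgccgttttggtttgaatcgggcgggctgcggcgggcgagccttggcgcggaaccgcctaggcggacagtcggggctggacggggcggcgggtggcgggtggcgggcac
Cenpf: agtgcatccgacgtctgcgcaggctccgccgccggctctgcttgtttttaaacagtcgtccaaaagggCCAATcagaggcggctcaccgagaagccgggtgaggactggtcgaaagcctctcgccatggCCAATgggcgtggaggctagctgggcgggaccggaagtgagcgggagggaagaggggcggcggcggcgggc
Kif11: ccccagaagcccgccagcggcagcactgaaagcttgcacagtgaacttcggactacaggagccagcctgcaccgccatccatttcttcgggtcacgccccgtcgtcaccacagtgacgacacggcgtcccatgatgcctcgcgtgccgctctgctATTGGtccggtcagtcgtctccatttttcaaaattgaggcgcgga
Mki67 holds 3 such boxes, Cenpf 2 and Kif11 1.

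Of 47 DNA replication genes, 7 were lower and 2 higher, with a median log2 ratio of -0.15, a share lower that is under the 18.5% over all genes. Gins2, part of the replicative helicase, was at 52.6 and 15.9 CPM (3.31-fold, 2.88 to 3.80), the polymerase Pola1 at 61.1 and 23.8 CPM (2.57-fold, 2.27 to 2.90), and the nuclease Fen1 was higher at 13.8 and 27.7 CPM (2-fold, 1.62 to 2.51). Homologous recombination genes were lower for 6 of 25 and higher for 1, a share lower that is not far from the 18.5% over all genes. The lower ones were led by Brca2 at 49.2 and 11.3 CPM (4.34-fold, 3.72 to 5.05). Inhibitors of the cell cycle and p53 target genes were higher for 12 of 27 and lower for 4. Cdkn2a, which encodes the inhibitors p16 and p19Arf that build up as cultured fibroblasts age, was at 0.531 CPM in WT, 0.589 in the Sptbn1 heterozygote, 0.747 in the Sptbn1 homozygote, 1.26 in the Smad3 heterozygote, 5.02 in the Smad3 homozygote, against 18.7 in the double heterozygote (31.8-fold, 12.4 to 117, in the comparison). The death receptor Fas was at 9.28 and 108 CPM (11.7-fold, 9.11 to 15.2) and the pro-apoptotic gene Bbc3 at 1.77 and 19.2 CPM (10.9-fold, 6.17 to 21.1). Cdkn1a, the p53 target p21, was at 309 and 284 CPM and was not called.

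Replication-dependent histone genes were close to absent from the double heterozygote. Of 36 histone genes compared, 34 were lower and 0 higher, and 16 had 0 counts in it. The median log2 ratio was -7.45, or -5.18 with those members at their bound. The linker histone Hist1h1e was at 126 and 0.0955 CPM, with 117 CPM in WT and 272 in the Smad3 homozygote. Its 3 counts in the double heterozygote give a ratio of 1321-fold with an interval from 450 to 6417. Most transcripts of these genes end in a stem-loop and carry no poly(A) tail. Of 23 small structural and long nuclear RNAs, 10 were lower, 3 higher (Neat1, H19 and Snhg6) and 10 neither, with a median log2 ratio of -0.61. Malat1, a nuclear RNA that also ends without a true poly(A) tail, was at 36898 and 335 CPM, and Rn7sk, a small RNA that restrains transcription, at 64.5 and 0.605 CPM, with 4153 CPM in the Smad3 homozygote. The 18S ribosomal RNA Rn18s was at 75405 and 1529 CPM. Neat1, a long nuclear RNA with a polyadenylated form, was higher at 279 and 713 CPM (2.55-fold, 2.44 to 2.68). Summed histone levels were 636 CPM in the Sptbn1 heterozygote and 45.4 CPM in the double heterozygote. In the Smad3 homozygote, with a like share of reads on genes, the sum was 4028 CPM. Malat1, at 4473 CPM, and Rn18s, at 349 CPM, were lower in the Smad3 homozygote than in the Sptbn1 heterozygote. The part of library make-up in these levels was not tested. Reads of histone genes also cannot be placed with certainty among the copies.

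Genes of glycolysis and of the response to low oxygen were higher for 23 of 33 and lower for 0, with a median log2 ratio of 1.16. With the widened intervals given at the end, most of the 33 were not called. Adm, the vasodilator adrenomedullin and a target of the hypoxia-inducible factor, was at 17.8 and 328 CPM (18.4-fold, 15.4 to 22.2), with 51.3 CPM in the Smad3 homozygote as the next highest. The glycolytic enzymes Pfkl, at 87.6 and 439 CPM, and Tpi1, at 48.9 and 241 CPM, were 5.01-fold (4.62 to 5.45) and 4.92-fold (4.41 to 5.51) higher, and the lactate exporter Slc16a3, at 61.7 and 284 CPM, 4.60-fold (4.17 to 5.08) higher. The double heterozygote stood apart from the other 5 libraries for 12 of the 33, among them Adm, Pfkl and Slc16a3. Tpi1 was not one of them, since it was at 400 CPM in the Smad3 homozygote. Of the 33, 31 had a promoter in the table and 15 of those (48.4%) held ACGTG, the core of the hypoxia response element, on either strand, against 16.6% of all promoters and 21.7% of those of the genes compared, 74.7% of which had a promoter in the table. Gapdh, whose many processed copies make its counts uncertain, was at 1.18 and 1.11 CPM and was not called.

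Collagen genes were higher in the library labelled double heterozygote: 17 of 27 chains were higher and 2 lower, with a median log2 ratio of 1.28. With the widened intervals given at the end, most of the 27 were not called higher. Col1a1, the main chain of type I collagen, was at 9319 CPM in WT, 9419 in the Sptbn1 heterozygote, 9533 in the Sptbn1 homozygote, 6903 in the Smad3 heterozygote, 2896 in the Smad3 homozygote, against 14982 in the double heterozygote, 1.59-fold (1.58 to 1.60) higher in the comparison, a call lost under DESeq2 size factors. Col3a1 was at 4972 and 11421 CPM (2.30-fold, 2.27 to 2.32). Larger ratios were those of Col5a3, a minor chain that tunes fibril width, at 61.5 and 860 CPM (14-fold, 12.7 to 15.4), and of the basement membrane chains Col18a1, at 61.4 and 489 CPM, and Col4a2, at 310 and 1705 CPM (7.96-fold, 7.22 to 8.79, and 5.50-fold, 5.27 to 5.75). Col12a1 and Col8a1 were the chains that were lower, at 5843 and 2060 CPM and at 657 and 180 CPM. Of the 27, 15 lay above all other libraries.

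Other matrix genes were mixed. Among elastic fibre and glycoprotein genes 13 of 34 were higher and 6 lower. Emilin1, a glycoprotein of elastic fibres, was at 52.9 and 578 CPM (10.9-fold, 9.85 to 12.2) and osteopontin, Spp1, at 353 and 1944 CPM (5.50-fold, 5.28 to 5.73), whereas Sparc was at 9566 and 5272 CPM and the hyaluronan synthase Has2 at 114 and 56.0 CPM, both lower. Elastin, Eln, at 243 and 198 CPM, and fibronectin, Fn1, at 7654 and 9501 CPM, were not called. The cartilage matrix protein Comp had 0 counts in the Sptbn1 heterozygote and 21.1 CPM in the double heterozygote, at least 47.7-fold higher. The collagen-binding proteoglycan Lum was at 238 and 1565 CPM (6.57-fold, 6.25 to 6.91). Of 25 metalloproteinases and their inhibitors, 9 were higher and 7 lower. Mmp3, stromelysin, was at 436 CPM in WT, 176 in the Sptbn1 heterozygote, 219 in the Sptbn1 homozygote, 130 in the Smad3 heterozygote, 21.9 in the Smad3 homozygote, against 4012 in the double heterozygote (22.8-fold, 21.5 to 24.1). The gelatinase Mmp2 was at 531 and 2140 CPM (4.03-fold, 3.90 to 4.17), and the inhibitor Timp3 was lower at 2740 and 542 CPM (5.06-fold, 4.96 to 5.17).

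**Figure D3:**
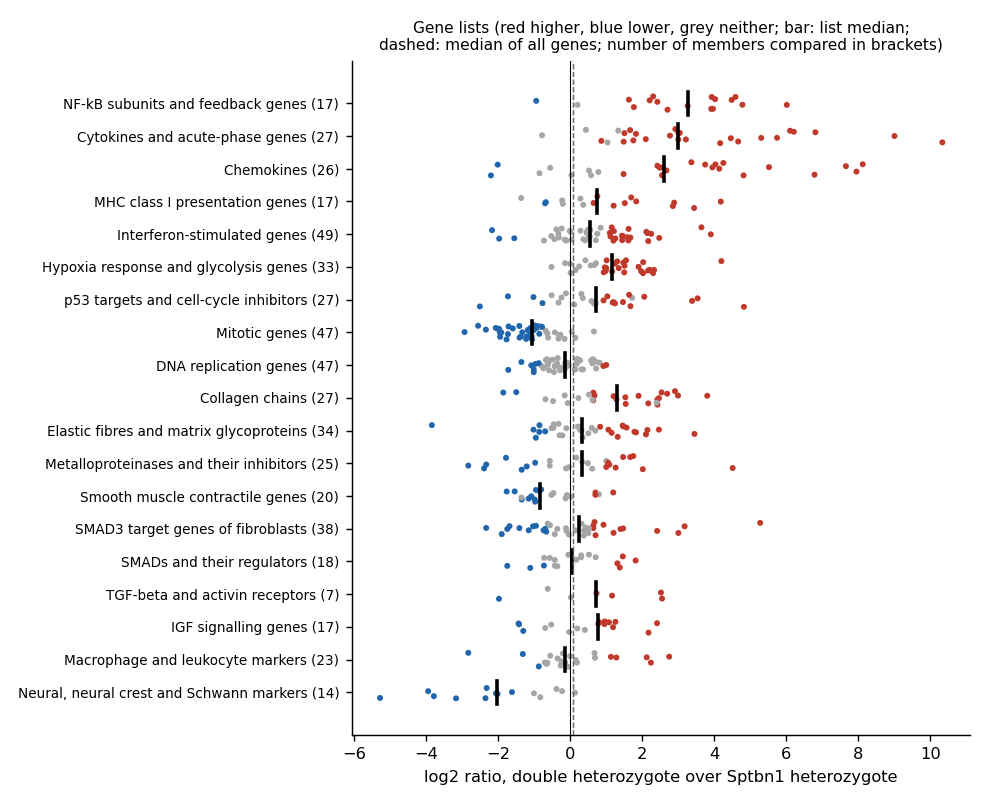
Log2 ratio of double heterozygote over Sptbn1 heterozygote for each compared member of 19 gene lists, 1 point per gene, red where called higher, blue where called lower and grey otherwise, with a bar at each list's median. The NF-kB, cytokine and chemokine lists have medians from 2.61 to 3.26, and the mitotic and contractile lists have medians of -1.08 and -0.84, against 0.08 for all genes (dashed line).

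Of 20 contractile genes of smooth muscle and myofibroblasts, many of them under TGF-beta control, 10 were lower and 3 higher, with a median log2 ratio of -0.84. Tropomyosin 1, Tpm1, was at 2058 and 704 CPM (2.93-fold, 2.86 to 2.99), the myosin light chain Myl9 at 385 and 113 CPM (3.41-fold, 3.24 to 3.59) and smooth muscle actin, Acta2, at 2309 and 1189 CPM (1.94-fold, 1.91 to 1.98). Tagln was higher at 220 and 358 CPM (1.62-fold, 1.54 to 1.71), a call lost under DESeq2 size factors. For 6 of the 20 the double heterozygote lay below all other libraries, Tpm1 and Myl9 among them. Targets of SMAD3 in fibroblasts, a list that shares members with the matrix lists, gave no common direction: 12 of 38 were higher, 11 lower and 15 neither, with a median log2 ratio of 0.23. Angptl4, a lipase inhibitor, was at 9.57 and 373 CPM (39.0-fold, 30.6 to 50.6), Junb at 16 and 146 CPM (9.07-fold, 7.5 to 11.1) and Igfbp3 at 388 and 2063 CPM (5.31-fold, 5.11 to 5.52). Connective tissue growth factor, Ctgf, was lower at 555 and 148 CPM (3.75-fold, 3.59 to 3.92) and the collagen receptor subunit Itga11 at 397 and 123 CPM (3.23-fold, 3.07 to 3.39).

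Components of the TGF-beta pathway were examined from ligand to SMAD. Of 12 ligands and latency proteins, 4 were higher and 2 lower. Tgfb1 was at 42.3 and 84.1 CPM (1.99-fold, 1.76 to 2.26) and the latent TGF-beta binding proteins Ltbp2, Ltbp3 and Ltbp4 were 2.63-, 4.09- and 3.59-fold higher. The lower ones were Tgfb3, at 295 and 187 CPM, whose call was lost with total counts and without histone and structural RNA genes, and Inhba. Inhba, the activin A subunit, was at 398 and 36.5 CPM, 10.9-fold (10.2 to 11.7) lower, but with 53.3 CPM in the Smad3 homozygote it did not stand apart from all libraries. Among 7 receptors the type I receptors Acvr1b, at 19 and 111 CPM (5.87-fold, 4.92 to 7.05), and Acvrl1, at 11.9 and 68.6 CPM (5.75-fold, 4.61 to 7.28), were higher, as were the co-receptors Tgfbr3 (not under DESeq2 size factors) and Eng, and the type II activin receptor Acvr2a was lower at 191 and 48.1 CPM (3.96-fold, 3.67 to 4.27). The main TGF-beta receptors Tgfbr1, at 122 and 78.7 CPM, and Tgfbr2, at 428 and 433 CPM, were not called. Of 18 SMADs and their regulators 4 were higher and 3 lower, near the shares of 22% and 18.5% over all genes. Those higher were Smad3 itself, the inhibitory Smad6, the receptor decoy Bambi and the anchor Zfyve9. Those lower were the ubiquitin ligases Smurf2 and Trim33 (the latter not with total counts) and the inhibitor Pmepa1. Among 18 spectrins, ankyrins and adducins, 2 were higher, Add3 and Ank2 (the latter not under DESeq2 size factors), and 6 lower. Besides Sptbn1 these included the beta spectrins Spnb1, at 2.80 and 0.541 CPM, and Spnb3, at 4.12 and 0.127 CPM.

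Other growth factor pathways had members in both directions. Of 17 IGF genes, 9 were higher and 3 lower. Igf2 was at 2371 and 4060 CPM (1.71-fold, 1.68 to 1.74), H19, its imprinted neighbour, at 1856 and 4220 CPM (2.27-fold, 2.23 to 2.32) and the binding protein Igfbp5 at 697 and 3141 CPM (4.50-fold, 4.38 to 4.64), while Igf1, at 311 and 115 CPM, and its receptor Igf1r, at 421 and 170 CPM, were lower together with the adaptor Irs1. Among 29 Wnt genes 11 were higher and 8 lower. Rspo2, an amplifier of Wnt signals, was at 2.80 and 71.0 CPM (25.4-fold, 16.2 to 42.2), and its relative Rspo1 went the other way, from 76.3 to 3.98 CPM (19.2-fold, 15.7 to 23.5). Rspo1 was at 8.32 CPM in WT and 52.9 CPM in the Sptbn1 homozygote, so the Sptbn1 libraries were the high ones. Of 21 BMP genes, 7 were higher, among them the antagonist Chrd at 1.18 and 14.2 CPM (12.0-fold, 6.05 to 28.0), and 3 lower, the ligands Bmp5 and Gdf10 and the receptor Bmpr2. Of 19 FGF and PDGF genes, 9 were higher, among them the receptor Pdgfra at 596 and 1740 CPM (2.92-fold, 2.83 to 3.01), and 3 lower, Pdgfc, Fgf18 and Fgfr3. Of 15 YAP targets 3 were higher and 3 lower, near the shares of 22% and 18.5% over all genes. Those higher were Amotl2, Axl (not under DESeq2 size factors) and Jub. Those lower were Ctgf, Birc5 and the matrix protein gene Cyr61, the last at 508 and 212 CPM (2.40-fold, 2.30 to 2.50).

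Hox genes, which record the position a cell came from along the trunk and limb, differed by cluster. None of the 6 Hoxc genes compared was higher and all 6 were lower, such as Hoxc8 at 49.0 and 15.2 CPM (3.23-fold, 2.80 to 3.72) and Hoxc10 at 19 and 7.71 CPM (2.46-fold, 1.97 to 3.06). In the Smad3 homozygote Hoxc8 was at 13.7 CPM and Hoxc10 at 3.24 CPM, both below the double heterozygote. Of 7 Hoxa and Hoxd genes with paralogue numbers 10 to 13, the ones used in the distal limb, 6 were higher and 0 lower. Hoxd13 was at 4.16 CPM in WT, 0.883 in the Sptbn1 heterozygote, 0.448 in the Sptbn1 homozygote, 0.291 in the Smad3 heterozygote, 14.9 in the Smad3 homozygote, against 42.3 in the double heterozygote (47.9-fold, 22 to 131, in the comparison). Hoxa11 was at 1.77 and 14.8 CPM (8.40-fold, 4.76 to 16.4). Hoxa13 had 1 count in the Sptbn1 heterozygote and 5.48 CPM in the double heterozygote (37.2-fold, 6.59 to 1478), and Hoxd12 had 0 counts and 3.92 CPM, at least 8.87-fold higher. The Smad3 homozygote held Hoxa11 at 12.2, Hoxa13 at 2.40 and Hoxd12 at 2.49 CPM. The double heterozygote stood apart from it by the rule for Hoxa13 and Hoxd13, but not for Hoxa11 and Hoxd12. Over all 33 Hox genes 9 were higher and 7 lower, a little above the shares over all genes. The double heterozygote stood above all other libraries for 4 of them and below all for 1. Of 50 other patterning factors 13 were higher, such as the hindlimb gene Tbx4 at 8.10 and 70.2 CPM (8.67-fold, 6.64 to 11.5), and 15 lower, such as the craniofacial and bone gene Dlx5 at 3.98 and 0.350 CPM (11.3-fold, 5.45 to 25.4). The sources used here do not say how embryos were dissected, and the share of cells from each body part was not tested.

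**Figure D4:**
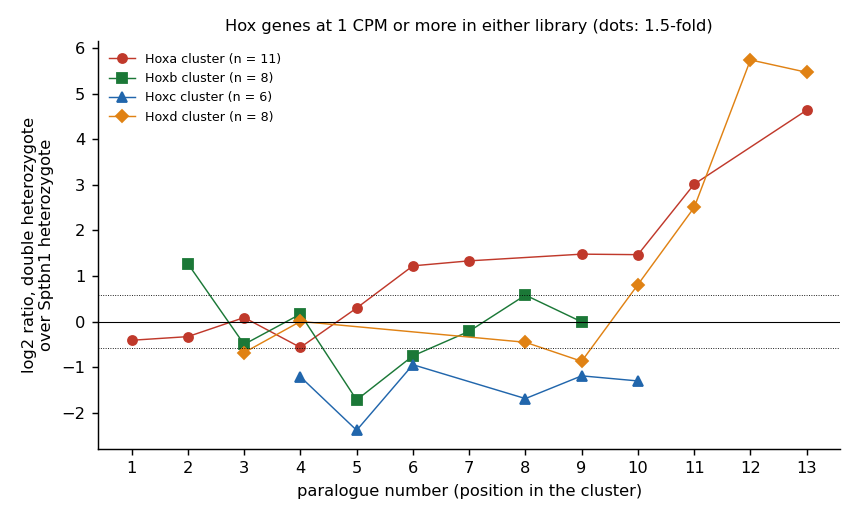
Log2 ratio of double heterozygote over Sptbn1 heterozygote (vertical axis) for the 33 Hox genes compared, by paralogue number (horizontal axis) and cluster, with dotted lines at 1.5-fold. The Hoxc genes all lie below 0, and Hoxa and Hoxd genes climb towards paralogue 13, where Hoxd13 is 47.9-fold higher.

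Markers of other cell types were counted in the same pair. Neural, neural crest and Schwann markers were lower for 9 of 14 and higher for 0, with a median log2 ratio of -2.05 and a summed level over the 20 listed of 671 and 219 CPM. The same sum was 651 CPM in WT, 790 in the Sptbn1 homozygote, 563 in the Smad3 heterozygote and 585 in the Smad3 homozygote. Gfap, a glial filament, was at 23 and 0.573 CPM (40.1-fold, 24.5 to 69.4) and the crest factor Sox10 at 16.5 and 1.82 CPM (9.08-fold, 6.55 to 12.7). Both were also low in the Smad3 heterozygote, at 5.91 and 4.65 CPM, and in the Smad3 homozygote, where Gfap had 0 counts and Sox10 was at 0.489 CPM. Cartilage and bone markers were higher for 6 and lower for 6 of 16, with Runx2, the osteoblast factor, at 174 and 29.4 CPM (5.94-fold, 5.44 to 6.48). Mesothelial, gonadal and visceral markers were higher for 6 and lower for 4 of 15, the mesothelial antigen Msln being at 1.77 and 23.6 CPM (13.3-fold, 7.59 to 25.9). Of the fibroblast markers 8 of 16 were higher, and 1, Thy1, was lower at 933 and 395 CPM (2.36-fold, 2.29 to 2.44).

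Stress and metabolic lists were called in part. Of 28 NRF2 targets and metallothioneins 11 were higher and 2 lower; the mitochondrial superoxide dismutase Sod2, which NF-kB also induces, was at 59.8 and 645 CPM (10.8-fold, 9.78 to 11.9) and the metallothionein Mt2 at 70.7 and 380 CPM (5.38-fold, 4.91 to 5.91). Of 29 ATF4 targets, which respond to amino acid shortage, 8 were lower and 2 higher, with the glutathione-degrading enzyme Chac1 at 55.2 and 9.94 CPM (5.56-fold, 4.77 to 6.48) and the serine synthesis enzyme Psat1 at 325 and 133 CPM (2.44-fold, 2.32 to 2.57). Of 32 cholesterol and fatty acid synthesis genes 7 were lower, such as Hsd17b7 at 123 and 33.1 CPM (3.73-fold, 3.40 to 4.09), and 3 higher, among them Acly, which makes cytosolic acetyl-CoA, at 130 and 257 CPM (1.98-fold, 1.84 to 2.12). Of 24 endoplasmic reticulum chaperones and stress genes 4 were higher and 2 lower, and of 74 mitochondrial ribosomal proteins 11 and 4, shares below those over all genes. Cytosolic ribosomal proteins were higher for 26 and lower for 7 of 67, but their many processed copies leave these counts uncertain.

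Among the genes with the largest deficits in the double heterozygote, Oxtr, the oxytocin receptor, was at 37.4 and 0.0955 CPM, or 3 counts in the latter (391-fold, 132 to 1911), and Pgr, the progesterone receptor, at 37.4 and 0.955 CPM (39.1-fold, 26.8 to 59.2). Greb1, a cofactor of the oestrogen receptor, was at 34.9 and 0.318 CPM (110-fold, 58.5 to 231). All 3 were also lower in the Smad3 homozygote, at 0.0888, 1.15 and 1.29 CPM. Kcnq1ot1, the long non-coding RNA of an imprinted domain, was at 456 and 4.49 CPM (102-fold, 85.8 to 121). It was also low in the Smad3 homozygote, at 15.9 CPM, against 397 to 461 CPM in the libraries other than these 2 low ones. Trim39, a ubiquitin ligase gene, was at 70.0 CPM in WT, 688 in the Sptbn1 heterozygote, 502 in the Sptbn1 homozygote, 71.5 in the Smad3 heterozygote, 14 in the Smad3 homozygote, against 24.4 in the double heterozygote (28.2-fold, 26.1 to 30.5, in the comparison). The 2 libraries labelled with the Sptbn1 knockout alone were high, and the double heterozygote, whose label carries the same knockout, was below WT. Without a stated strand setting, reads of overlapping and antisense genes cannot be told apart in any of these counts.

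The same labelled step, from 2 intact Smad3 alleles to 1, also separates the library labelled Smad3 heterozygote from WT, and the 2 pairs share no library. For 13599 genes compared in both, the second pair had 214 genes higher (1.57%) and 629 lower (4.63%), together 6.2%, against 2909 (21.4%) and 2527 (18.6%), together 40%, in the first, and the SD of the log2 ratio was 0.65 against 1.61. Across genes, which are not replicates, Pearson's r of the log2 ratios was 0.10. Genes called in the same direction in both pairs numbered 324, of which 75 were higher, being 2.58% of the first pair's higher calls and 35.0% of the second's, and 249 lower, being 9.85% and 39.6%. Genes called in opposite directions numbered 161, of which 131 were higher in the double heterozygote and lower in the Smad3 heterozygote. The other 30 were called the other way round. The 131 were 20.8% of the second pair's lower calls, near the 21.4% of all 13599 genes called higher in the first. That count therefore shows no excess over the share of all genes. The Smad3 heterozygote was of female and WT of male type, so the second pair also compares the sexes.

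The difference between the 2 log2 ratios lay beyond 1.5-fold, with its whole interval, for 2625 genes upward (19.3%) and 2309 downward (17%), together 36.3%. Of 26 collagen chains, 0 were higher, 11 lower and 15 neither in the Smad3 heterozygote against WT, with a median log2 ratio of -0.49, and for 22 the ratio in the Sptbn1 heterozygous background was the larger by this rule. Col3a1 was 2.96-fold lower in the Smad3 heterozygote than in WT, at 1510 and 4467 CPM, and Col8a1 was lower in both pairs. Among the 49 genes that interferon induces the second pair had 13 lower and 0 higher, with the difference upward for 35. Of 20 contractile genes 3 were higher there and 0 lower, and the difference was downward for 11. Of 17 NF-kB genes 2 were lower there and 0 higher, Tnfaip3 being one of those lower, and the difference was upward for 15. No mitotic gene was called in the second pair, where the list's median log2 ratio was 0.26, and the difference was downward for 40 of 47. Neural markers were lower in both pairs, for 7 of 13 in the second.

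**Figure D5:**
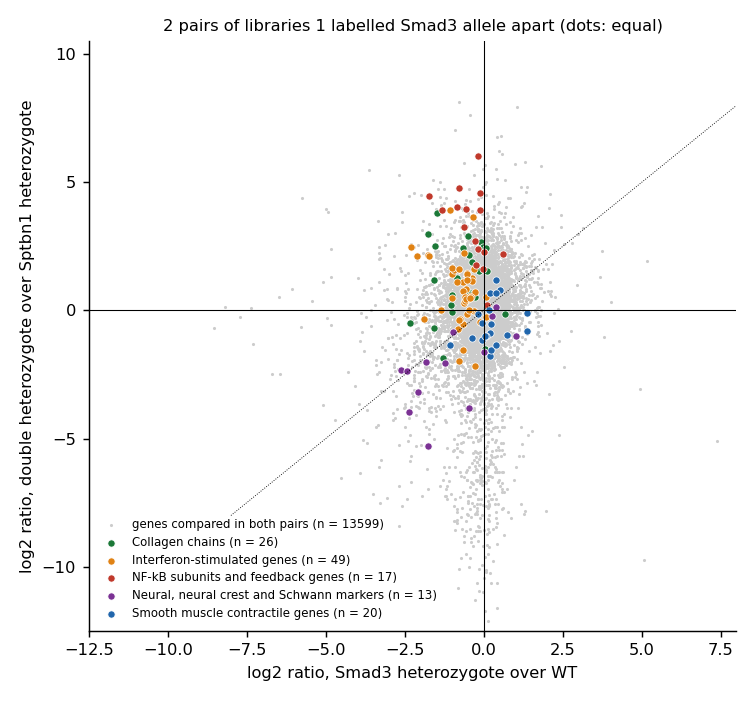
Log2 ratio of Smad3 heterozygote over WT (horizontal axis) and of double heterozygote over Sptbn1 heterozygote (vertical axis) for the 13599 genes compared in both pairs, with 5 gene lists coloured and a dotted line at equal ratios. The cloud is taller than it is wide (SD 1.61 against 0.65), with most collagens and interferon-stimulated genes left of 0 and neural markers to the lower left.

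A last count asked how far the double heterozygote lay outside all other libraries, since a difference within the pair can also come from a Sptbn1 heterozygote that is itself unusual. Of all genes compared, 1073 lay above the highest of the other 5 libraries (7.55%) and 637 below the lowest (4.48%), together 12%, with the whole interval beyond 1.5-fold. They include 1066 of the 3128 genes called higher in the pair (34.1%) and 634 of the 2632 called lower (24.1%). The remaining calls concern genes for which at least 1 other library was near the double heterozygote or beyond it. By list, those above were 15 of 17 NF-kB genes, 17 of 26 chemokines, 15 of 27 collagens and 16 of 49 interferon-stimulated genes, and those below were 34 of 47 mitotic genes and 31 of 36 histone genes.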

How the data were processed

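For every library the authors deposited unscaled counts of reads, listed by gene symbol. Per the labels' protocols, total RNA was taken with TRIZOL and 1 ug went into an Illumina TruSeq RNA kit. The tools named in the submitters' processing notes, without their roles, are TopHat2 2.0.10, HTSeq, Trimmomatic, FastQC and DESeq2, with the build mm9; strand setting, counting mode and annotation are not given in the sources used here. The 5 closing lines of read totals were dropped.

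Libraries were scaled by TMM over all 6 (edgeR 4.0.16, R 4.3.3), and CPM are counts-per-million of the scaled size. Ratios carry exact Clopper-Pearson 95% intervals (scipy 1.17.1). A count of 0 was replaced by a floor of 3 counts per library for a lower bound. The rules were run on simulated counts with planted changes and with counting error alone. That simulation held no spread between cultures and no difference in library make-up, so it bears on counting error only. The members of 49 gene lists and all rules were chosen with earlier results of these data known. Alternatives were DESeq2 1.42.0 size factors, total counts, no filter, 5 CPM, 2-fold, widened intervals, removal of histone and structural RNA genes and, added after seeing the data, the middle tertile of transcript length.

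Named genes are Sptbn1 and Smad3, 15 per direction with at least 20 CPM in the higher library and the largest interval bound nearest 1 (without predicted models, small and ribosomal RNAs, histones, ribosomal proteins and sex-linked genes), up to 4 called per direction per list, 8 per direction for the difference between backgrounds, and 12 genes named in any case; genes outside the rule were named after their values were seen. Some genes that the rule names are not reported here. Levels of list markers not called are given as checks. Promoters come from a RefSeq table of GRCm38.p6, matched by symbol or older symbol for 10616 of the 14217 genes; the counts themselves use mm9.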

Additional observations from a re-analysis of the deposited data

Results flagged for a closer look

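Among the genes named in any case or for the difference between backgrounds, 8 were called in opposite directions in the 2 pairs of libraries that are 1 labelled Smad3 allele apart. The values are the log2 ratio of the double heterozygote over the Sptbn1 heterozygote minus that of the Smad3 heterozygote over WT. Opposite calls, each beyond 1.5-fold, fix in advance that this difference is large, so its size adds no support. Hoxd13, Angptl4, Cck and Acp1 were moreover named for this difference. The intervals behind the calls cover counting error only and no replicates. Upward differences were those of Hoxd13 (9.10), the lipase inhibitor Angptl4 (7.97), Col3a1 (2.76), H19 (2.45) and Igf2 (1.46). Downward differences were those of the peptide hormone Cck (-8.04), the phosphatase Acp1 (-6.42) and smooth muscle actin Acta2 (-1.68). Cck was at 389 CPM in the Smad3 heterozygote and at 1.02 to 13.6 CPM in the other 5 libraries.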

How the results depend on the processing

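With a threshold of 2-fold, 1728 genes were higher and 1620 lower, the difference between backgrounds was called for 1516 upward and 1350 downward, and 545 genes lay above and 260 below all other libraries. With intervals widened by the dispersion of the 4 libraries with fewer reads on genes (biological coefficient of variation 0.185), the same counts were 1547, 1500, 1079, 918, 456 and 208. Within the middle tertile of transcript length, 1112 genes were higher and 589 lower, so calls were higher for 65.4% against 54.3% over all genes; fewer genes are tested there. Total counts, DESeq2 size factors, a 5 CPM filter, no filter and the removal of histone and structural RNA genes kept all 6 counts within 1.5 times their values, and no call made under any of these alternatives had the opposite direction to that reported. Of 305 named genes called, 10 lost the call under DESeq2 size factors, 5 with total counts, 61 at 2-fold and 78 with the widened intervals, and 4 of 297 without histone and structural RNA genes. Of 98 counts of list members, 7, 3, 39, 54 and 5 moved by over 1.5 times under these 5, 10 with the 5 CPM filter and 1 without a filter. Calls lost with the widened intervals, not marked one by one above, include Acly, Acta2, B2m, Bmpr2, C1qc, Col1a1, Col3a1, Cyr61, Emr1, Eng and Fen1. Also lost were H19, H2-D1, Has2, Hoxc10, Igf1r, Igf2, Psat1, Sparc, Sptbn1, Tgfb1, Thy1 and Tyrobp. The same held for Ank2, Axl, Bambi, Birc5, Fgfr3, Jub, Rel, Smurf2, Snhg6, Tagln, Tgfb3, Tgfbr3, Trim33 and Zfyve9. Under the 5 alternatives of scaling and filter, the share of calls that were higher ranged from 49.0% (DESeq2 size factors) to 59.1% (5 CPM filter). No paired analysis was possible because each genotype has 1 library. Depth was lower in the Sptbn1 heterozygote, and 71 genes compared had 0 counts in it, against 175 in the double heterozygote; their ratios are bounds.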

Other observations

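The amino acid transporter Slc36a2 was at 0.265 CPM in WT, 0 counts in the Sptbn1 heterozygote, Sptbn1 homozygote and Smad3 homozygote, 0.194 CPM in the Smad3 heterozygote and 35.7 CPM in the double heterozygote. The chondrocyte collagen Col10a1 was at 2.94 CPM in the Sptbn1 heterozygote and 22.6 CPM in the double heterozygote, where the aggrecan gene Acan, another cartilage gene, was lower at 4.42 and 0.860 CPM. The imprinted genes of chromosome 12 took opposite directions: Dlk1 was at 38.9 and 472 CPM (12.1-fold, 10.7 to 13.8, higher) and Rtl1 at 46.5 and 1.37 CPM (34.0-fold, 24.7 to 47.9, lower). The giant muscle protein gene Ttn was at 13.1 and 0.892 CPM (14.7-fold, 9.52 to 23.3, lower).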
